A study of Mus musculus with 8 samples.

Results

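Transcription factors of the circadian output were followed in the arrays of Co and Pg mice: *Nfil3*, *Dbp*, *Tef*, *Hlf*, *Bhlhe40*, *Bhlhe41* and *Ciart*. They were taken by gene name from all spots that are not controls, which gave 14 probes of 7 genes among 56605 probes of 37325 named genes on the array, each probe spotted once. The genes were chosen by their role and with the measured difference in log2 signal between Co and Pg mice already known, above all that of *Nfil3*. Their differences are therefore given as a description, with no p-value. The RNA came from C57BL/6J mice that were 12 weeks old and received 100 μL of saline (Co, n = 4) or of sonicated *P. gingivalis* in saline (Pg, n = 4) into a vein, once, and the tissue was taken 18 h later. The dose is printed as 108 CFU in the sample labels and is written as a power of 10 in the methods. No allele is given beyond the strain, the methods give the mice as male, and each had 1 one-color array. The clock time of the injection and of the harvest is not given in the sources used here, so the circadian phase at which the tissue was taken is not known.

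The circadian clock is a loop in which CLOCK and BMAL1 bind E-box sequences and drive their own repressors, and it reaches the rest of the genome through a second layer of transcription factors whose genes the loop controls. DBP, TEF and HLF, the PAR bZIP family, activate genes that hold a D-box, and NFIL3 (also called E4BP4) binds the same sites and represses them. BHLHE40 and BHLHE41 (DEC1 and DEC2) and CIART (CHRONO) feed back on CLOCK and BMAL1 as repressors. Such genes cycle strongly over the day in fat, muscle and liver, and NFIL3 is also known from the development of NK cells and from lymphocytes that respond to cytokines.

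The stretch before the transcript start is a place where the loop can act on these genes, and the table of RefSeq promoters used here (GRCm38.p6) gave it for 6 of the 7, with 2 starts for *Tef*. The promoter of *Bhlhe40* was not analysed here. The 250 bases before each start were searched on both strands for the E-box (CACGTG), for the D-box in the forms TTATGTAA and TTACGTAA, and for the core element of the ROR and REV-ERB receptors (AGGTCA). The forms CACGTG and TTACGTAA read the same on both strands. *Ciart* is printed because it held the most E-boxes (3), and *Nfil3* because its signal differed between the groups. *Nfil3* held no E-box, nor did *Dbp* and *Hlf*. Capitals mark the E-boxes in *Ciart* (chr3:95882229-95882478, minus strand) and the core element, read on the opposite strand, in *Nfil3* (chr13:52981040-52981289, minus strand). Both starts lie inside the bounds of their gene, as do that of *Dbp* and start 2 of *Tef*.
Ciart: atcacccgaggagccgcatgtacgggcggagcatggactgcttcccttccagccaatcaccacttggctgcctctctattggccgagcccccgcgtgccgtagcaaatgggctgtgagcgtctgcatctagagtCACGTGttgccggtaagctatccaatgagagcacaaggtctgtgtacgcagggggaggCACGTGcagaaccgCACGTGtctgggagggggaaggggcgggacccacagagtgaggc
Nfil3: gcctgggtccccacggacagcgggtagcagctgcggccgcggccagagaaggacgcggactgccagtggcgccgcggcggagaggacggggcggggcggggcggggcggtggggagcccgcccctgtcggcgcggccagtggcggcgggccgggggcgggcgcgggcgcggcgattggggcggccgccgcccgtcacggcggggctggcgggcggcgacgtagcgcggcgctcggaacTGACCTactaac

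The E-boxes of *Ciart* began 116, 58 and 44 bases before the start, and 3 or more E-boxes were found in 20 of 32851 promoters (0.061%). *Tef* held 1 E-box before each of its 2 starts, beginning 127 and 138 bases upstream, and *Bhlhe41* held 1 that began 153 bases upstream. An E-box was thus present in 4 of the 7 windows, against 6.02% of all promoters. *Nfil3* held the core element 12 bases before its start, a sequence found in 14% of promoters. Neither form of the D-box, found in 0.819% and 0.113% of all promoters, occurred in these windows. A match describes the letters of the window and no more.

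**Figure D1:**
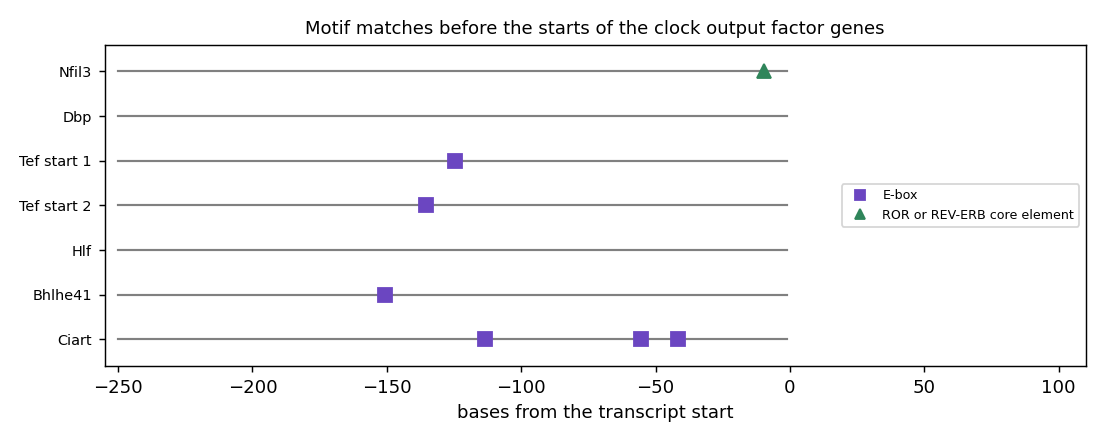
Positions of motif matches in the 250 bases before the transcript starts of the clock output factor genes. The x axis gives bases from the start and each line is 1 start. Squares mark E-boxes and the triangle a core element of the ROR and REV-ERB receptors. *Ciart* holds 3 E-boxes, *Tef* 1 at each start, *Bhlhe41* 1, and *Nfil3* only the core element.

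The Co arrays filled row 1 and the Pg arrays row 2 of a single slide that was scanned once, and row and group cannot be told apart. Within each row the replicate number was also the slide column, so number and column cannot be told apart either. More probes were well above background per Co array (34760 to 35831) than per Pg array (31132 to 34063), and the negative controls spread more widely in Pg (11.6 to 18.7 intensity units against 8.10 to 9.75). The tissue is labelled BAT. *Ucp1*, the uncoupling protein that defines brown fat, was well above background on none of the 8 arrays, nor were *Elovl3* and *Bmp8b*, while the other 5 of 8 brown adipocyte markers, all 7 general adipocyte markers and all 10 skeletal muscle markers were above background on all 8 arrays. The paper measured *Ucp1* and *Cidea* in BAT by quantitative PCR and reports both as significantly lower in Pg mice. The summed normalized signal of the muscle markers was 2100000 to 2310000 in Co and 2110000 to 2370000 in Pg mice, and that of the brown adipocyte markers was 247000 to 286000 and 273000 to 293000. No marker of these lists was a DEG in limma. To be a DEG, a probe needed a q (FDR) under 0.1 together with a change of more than 1.5-fold.

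Of the 14 probes, 13 were well above background on all 8 arrays, none was saturated, and all 14 passed the filter on dim probes (well above background on at least 4 arrays). *Nfil3*, lower in Pg mice, was called, and the other 6 genes were not. The 2 probes of *Nfil3* were DEGs and the other 12 probes were not, nor did any of those 12 have an FDR q under 0.1. Among the 33819 probes tested, 1.61% were DEGs, 1.3% were DEGs lower in Pg mice, and 7.82% had an FDR q under 0.1. Nothing is read from this count, since the genes were chosen with this comparison known. Of all DEG probes, 80.6% were lower in Pg mice, a share that was 51.6% with scaling to the 75th percentile and 25.9% without normalization between arrays. The 12 probes of the other genes were evenly divided. Pg mice were higher for 6 and lower for 6, and the log2 fold changes ran from −0.34 to 0.61 around a median of −0.01, beside −0.04 over all probes tested. In bulk tissue, fewer cells that express a gene and less RNA per cell cannot be told apart.

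**Figure D2:**
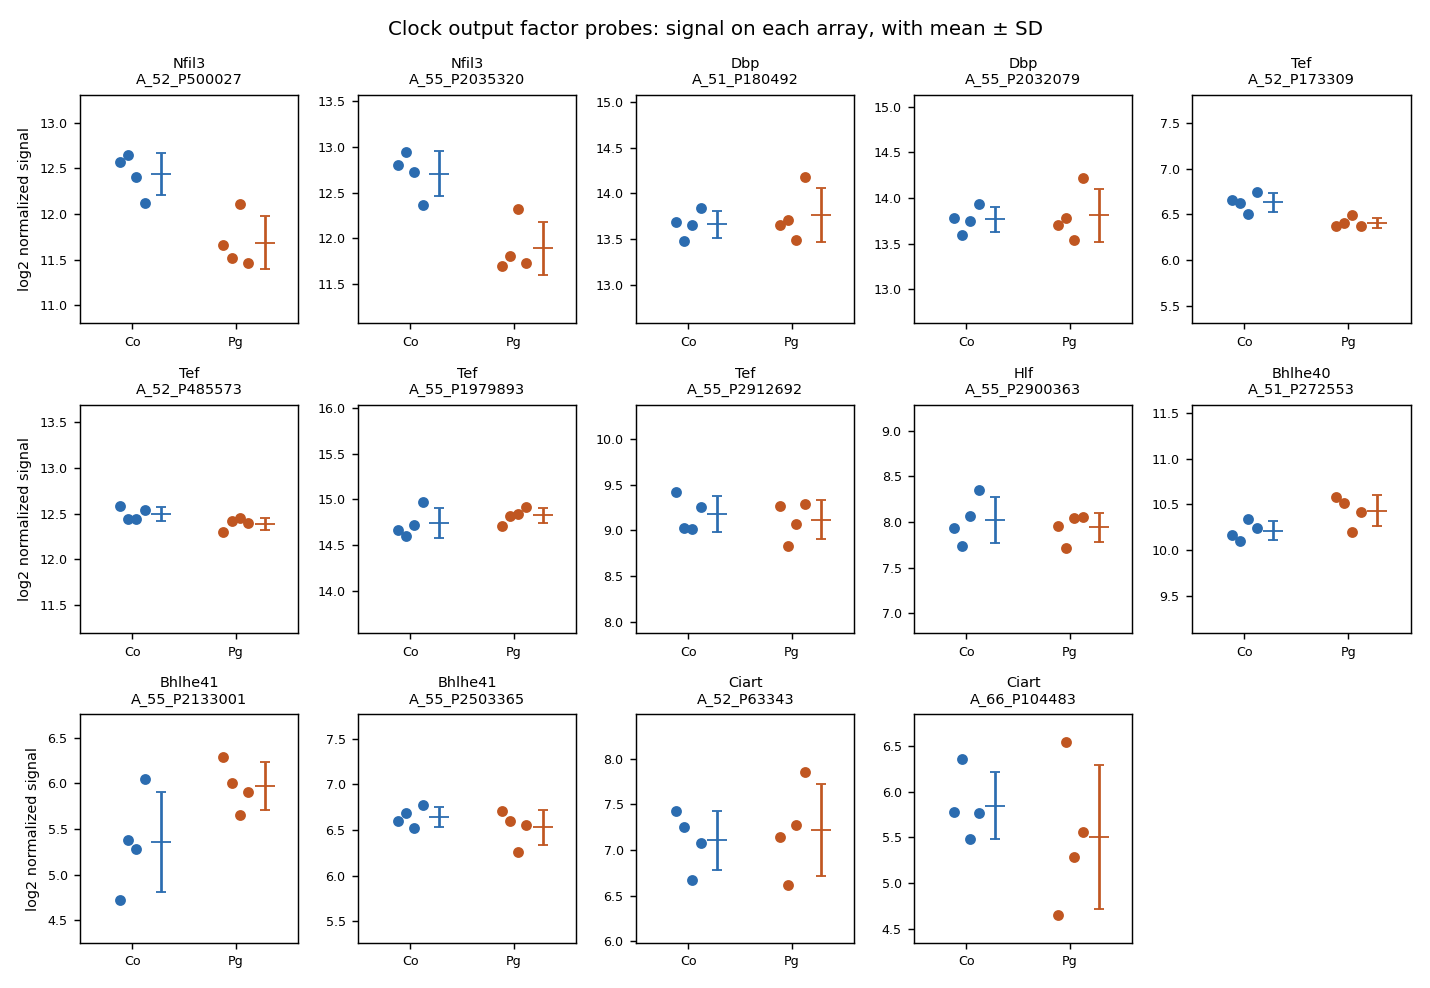
Normalized log2 signal of the 14 probes of the clock output factors on each array. Points are single arrays (4 Co, 4 Pg), and the bar beside them gives the mean ± SD. Every panel spans the same height on the log2 scale around its own centre. Both *Nfil3* probes are lower on all Pg arrays, with Pg replicate 3 nearest to the Co arrays, and the groups overlap in 11 of the other 12 probes.

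*Nfil3* (gene ID 18030, chromosome 13 of GRCm38 from 52967209 to 52982878) encodes the repressor of D-box genes. Probe A_55_P2035320 read 12.80, 12.94, 12.72 and 12.36 on the log2 scale on Co arrays 1 to 4 and 11.70, 11.81, 12.32 and 11.73 on Pg arrays 1 to 4. All Pg arrays were below all Co arrays, but Pg replicate 3 lay only 0.04 under Co replicate 4. The Co mean was 12.71 ± 0.25 against a Pg mean of 11.89 ± 0.29 (SD, n = 4 each), so that the signal was 1.76-fold higher in Co mice (log2 fold change −0.82, standard error 0.17). Before normalization between arrays its intensity lay between 5240 and 7390 units in Co mice, above the 3300 to 5040 units of Pg mice.

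Probe A_52_P500027 of *Nfil3* gave 12.57, 12.65, 12.40 and 12.12 on the Co arrays and 11.66, 11.52, 12.11 and 11.46 on the Pg arrays. Its groups came as close, with Pg replicate 3 only 0.01 under Co replicate 4. The log2 fold change was −0.75 (standard error 0.17), or 1.68-fold. These 2 probes are no independent readings of the transcript, since they begin at bases 1925 and 1932 of NM_017373 and share 53 of their 60 bases (chr13:53062585-53062644 and chr13:53062578-53062637 in the mm9 build of the array). The log2 fold change lay between −0.67 and −0.96 over both probes when 1 array was left out, but both calls held only in the fits that left out Co replicate 4 or Pg replicate 3, and leaving out any of the other 6 arrays ended them. Neither was called without normalization between arrays (−0.73 and −0.79), nor, with the values as reported (−0.75 and −0.82), when all probes were tested or the replicate block was used.

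**Figure D3:**
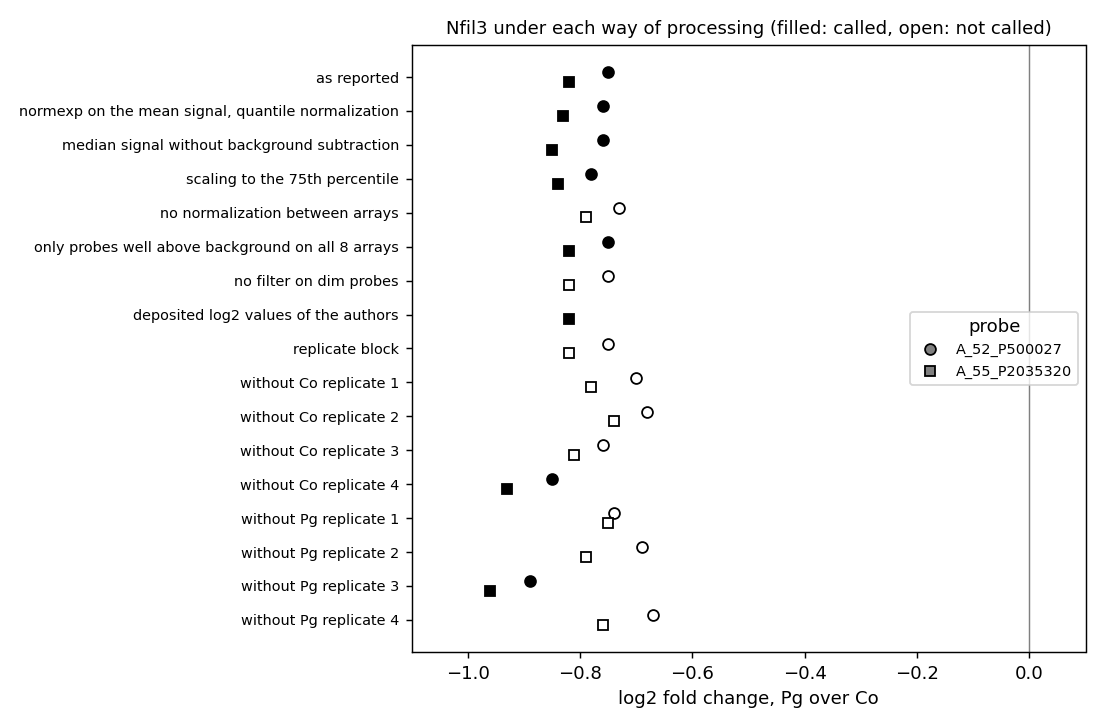
Log2 fold change of *Nfil3* (Pg over Co, x axis) as reported and under each other way of processing the arrays (y axis), for its 2 probes. Filled symbols were DEGs and open symbols were not. All values lie between −0.96 and −0.67, while the call comes and goes, and the deposited values hold only 1 of the 2 probes.

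The PAR bZIP factors, the activators that share the D-box with NFIL3, overlapped between the groups for *Dbp* and *Hlf* and differed by probe for *Tef*. *Dbp* (gene ID 13170, chromosome 7 from 45705100 to 45710203) is the PAR bZIP gene best known for its large daily swing. Probe A_51_P180492 read 13.69, 13.48, 13.66 and 13.84 in Co mice and 13.66, 13.71, 13.49 and 14.18 in Pg mice. Pg replicate 4 was the highest array and the other 3 Pg arrays fell within the Co range. The log2 fold change was 0.10 (standard error 0.15), and it was 0.05 (standard error 0.15) for A_55_P2032079, which lies further along the same transcript, with 13.54 to 14.22 in Pg mice against 13.60 to 13.93 in Co mice. The sign rested on Pg replicate 4, without which these values were −0.05 and −0.09 (the second was also −0.01 without Co replicate 2).

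*Hlf* (gene ID 217082, chromosome 11 from 90336535 to 90390917) had 1 probe, which read 7.94, 7.74, 8.07 and 8.35 in Co mice and 7.96, 7.72, 8.04 and 8.06 in Pg mice. The groups overlapped, with Co replicate 4 the highest array, and the log2 fold change was −0.08 (standard error 0.14) and 0.03 without Co replicate 4.

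*Tef* (gene ID 21685, chromosome 15 from 81802673 to 81826863) had 4 probes, none of which was called. A_55_P1979893 had a Co mean of 14.74 ± 0.16 and a Pg mean of 14.82 ± 0.08 (SD, n = 4 each), or a log2 fold change of 0.08 (standard error 0.09). A_52_P485573, which begins at base 3785 of NM_153484, had a log2 fold change of −0.11 (standard error 0.06), and A_55_P2912692, designed on another transcript (ENSMUST00000164673), one of −0.06 (standard error 0.13), which turned to 0.02 without Co replicate 1 and to 0.03 without Pg replicate 2. The fourth, A_52_P173309, read 6.66, 6.63, 6.50 and 6.75 in Co mice and 6.37, 6.41, 6.49 and 6.37 in Pg mice. Its groups did not overlap, though Pg replicate 3 was only 0.01 under Co replicate 3, and its log2 fold change was −0.23 (standard error 0.07). Before normalization between arrays the groups did overlap (84.6 to 105 intensity units in Co and 84.4 to 92.8 in Pg), and the log2 fold change was −0.07 without it and −0.10 to −0.13 with the other corrections and scalings. This is the one *Tef* probe that the array places over a splice junction, as its 60 bases span 2106 bases of the genome (chr15:81651816-81653921 in mm9, plus strand), and it is printed with the dimmer *Bhlhe41* probe described below because each differs from the other probes of its gene.
Tef A_52_P173309: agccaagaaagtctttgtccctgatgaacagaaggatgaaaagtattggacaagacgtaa
Bhlhe41 A_55_P2133001: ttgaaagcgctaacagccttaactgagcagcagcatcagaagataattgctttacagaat

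No part of these probes is capitalized, since no motif is read from them. In all, 3 of the 14 probes were without overlap between the groups (2 of *Nfil3* and 1 of *Tef*), as for 15.8% of all probes tested, and *Tef* had 1 q under 0.1 (A_52_P173309) only when the test was limited to probes above background on all 8 arrays.

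None of the 5 probes of the E-box repressors was called, and 3 had a higher and 2 a lower mean in Pg mice. *Bhlhe40* (gene ID 20893, chromosome 6 from 108660629 to 108666925) read 10.16, 10.10, 10.34 and 10.24 in Co mice and 10.58, 10.51, 10.20 and 10.42 in Pg mice. Pg replicates 1, 2 and 4 were above all Co arrays and Pg replicate 3 was among them, with a log2 fold change of 0.22 (standard error 0.10). *Bhlhe41* (gene ID 79362, chromosome 6 from 145858243 to 145865420) had 2 probes whose values differed in sign. A_55_P2133001, which begins at base 438 of NM_024469, read 4.72, 5.38, 5.28 and 6.05 in Co mice and 6.29, 6.01, 5.66 and 5.91 in Pg mice. Its Co arrays spread over more than the difference between the means, and its log2 fold change was 0.61 (standard error 0.27). This was the highest value among the 14 probes, and it lay between 0.29 and 0.84 under the other settings without a call in any of them. A_55_P2503365, near the other end of the transcript at base 6063 of NM_001271768, averaged 6.65 ± 0.11 in Co and 6.53 ± 0.19 in Pg (SD, n = 4 each), with a log2 fold change of −0.12 (standard error 0.11) that was 0.04 without normalization between arrays.

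*Ciart* (gene ID 229599, chromosome 3 from 95878500 to 95882257), the gene with 3 E-boxes, held the probe with the highest standard error of the 14. A_52_P63343 read 7.43, 7.25, 6.67 and 7.08 in Co mice and 7.14, 6.62, 7.27 and 7.85 in Pg mice. The log2 fold change was 0.11 (standard error 0.27), with −0.03 without Co replicate 3 and −0.10 without Pg replicate 4. A_66_P104483 read 5.78, 6.36, 5.48 and 5.77 in Co mice and 4.65, 6.54, 5.29 and 5.56 in Pg mice, and was not well above background on Pg replicate 1. Its log2 fold change was −0.34 (standard error 0.38) and lay between −0.68 (without Pg replicate 2) and −0.05 (without Pg replicate 1). For both probes the Pg arrays held the highest as well as the lowest value, and the groups overlapped.

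The other genes of the loop and the genes it controls were looked up in 2 lists drawn up by function, with the brightest probe standing for a gene. Of 17 core clock genes, 15 were tested. None was a DEG in limma (1.19% of 22451 genes tested were, and 0.86% were DEGs lower in Pg mice), and by this probe 0 had an FDR q under 0.1 while 4 of the 15 had an unadjusted p under 0.05 (20.4% of all genes tested did). In Pg mice 10 genes had a higher mean and 5 a lower one, and the median log2 fold change was 0.08 beside −0.01 over all genes tested. The values ran from −0.32 to 0.46. Over all 34 tested probes of these genes, 14 were higher and 20 lower, with a median of −0.09. Of all probes tested on the array, 57.7% were lower, with a median of −0.04.

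At the centre of the loop, *Arntl* and *Clock* depended on the probe. *Arntl*, which encodes BMAL1, differed by 0.06 in log2 signal on its brightest probe (standard error 0.13, limma's adjusted p = 0.818). Its other tested probes gave −0.74 (A_55_P2735445, standard error 0.22, limma's adjusted p = 0.111) and −0.34 (A_66_P127371, limma's adjusted p = 0.32). The E-box targets and repressors *Per1* and *Per2* had, on their brightest probes, 0.09 (adjusted p = 0.667) and −0.16 (adjusted p = 0.332), and *Nr1d1*, which encodes REV-ERBα, had 0.17 (adjusted p = 0.291, limma). The brightest probe of *Clock* gave 0.09 (adjusted p = 0.478) and a second −0.06 (adjusted p = 0.691), whereas A_52_P279391 fell by 0.73 in log2 signal (standard error 0.12, adjusted p = 0.0439 from limma) and stayed a DEG in 6 of 8 fits that each left out 1 array (not without Co replicate 2 or without Co replicate 3). With normexp (−0.49) or the median signal (−0.51) it kept a q under 0.1 but missed the fold change limit. It had no such q without normalization between arrays (−0.60) or with the replicate block (−0.73).

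Of 18 clock-controlled genes, known in some tissue as targets of the PAR bZIP, NFIL3 or DEC factors or of the loop itself, 14 were tested. *Wee1* was a DEG, *Tsc22d3* had an FDR q under 0.1 without passing the fold change limit, both lower in Pg mice (6.25% of genes tested had such a q, 4.19% with a lower value), and 4 of the 14 had an unadjusted p under 0.05, beside the 20.4% of all genes. In this list 11 genes were lower and 3 higher, around a median log2 fold change of −0.13, beside −0.01 over all genes (over all 27 tested probes, 23 lower and 4 higher, where 57.7% of all probes tested were lower). *Wee1*, a kinase that holds back entry into mitosis, read 8.28, 8.20, 8.11 and 8.18 in Co mice and 7.16, 7.47, 7.72 and 7.74 in Pg mice. All Pg arrays were below all Co arrays. It fell by 0.67 in log2 signal (standard error 0.13, limma's adjusted p = 0.0568). The q stayed under 0.1 without Pg replicate 1, 3 or 4, and *Wee1* was a DEG in 2 of these 3 fits (without Pg replicate 3 or 4), but the call was lost when Pg replicate 2 or any Co array was left out. With normexp (−0.49), the median signal (−0.51) and the deposited values (−0.54), *Wee1* kept a q under 0.1 but missed the fold change limit. It had no such q without normalization between arrays (−0.58) or with the replicate block (−0.67). *Tsc22d3*, which encodes the glucocorticoid-induced leucine zipper GILZ, fell by 0.53 in log2 signal (standard error 0.14, adjusted p = 0.0866 from limma), from 14.25 ± 0.19 (SD, n = 4) to 13.72 ± 0.23. It kept a q under 0.1 only without Pg replicate 3 among the fits with 1 array left out, and its second tested probe gave −0.45. The q was also lost without normalization between arrays (−0.50), without the filter on dim probes and with the replicate block (both −0.53). *Por*, the reductase of the cytochrome P450 enzymes and a D-box target in liver, had a log2 fold change of −0.10 (limma's adjusted p = 0.505).

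**Figure D4:**
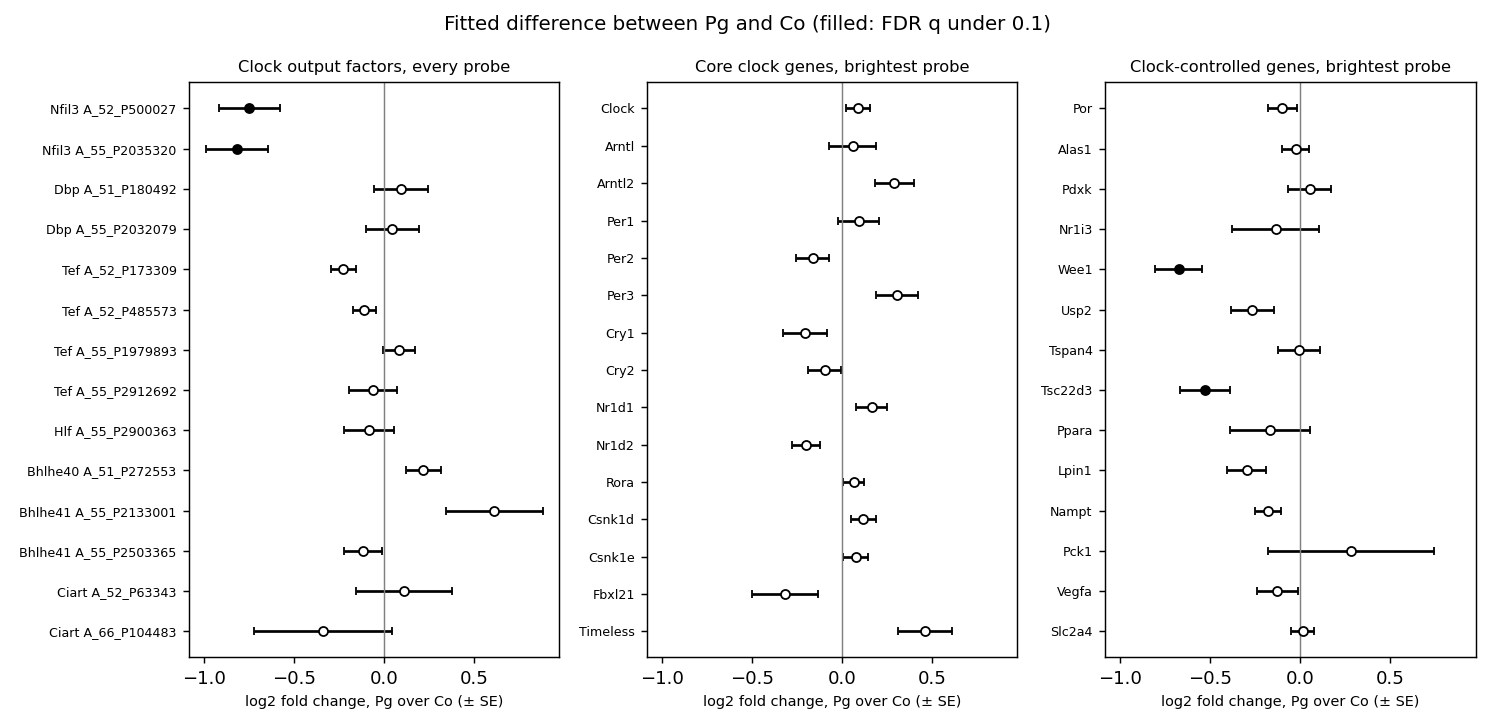
Fitted log2 fold change (Pg over Co, x axis) with its standard error for the 14 clock output factor probes, 15 core clock genes and 14 clock-controlled genes (4 arrays per group). Filled points had an FDR q under 0.1 and open points did not. *Nfil3*, *Wee1* and *Tsc22d3* are filled, all to the left of 0.

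*Nfil3* stood apart from the other output factors in its profile over the 8 arrays. Profiles were compared by the root mean square distance of the mean-centred log2 values, with the brightest probe of each gene. *Nfil3* was 0.494 from its nearest output factor, *Bhlhe41*, and was the farthest from each of the other 6, while *Tef* and *Hlf* were 0.142 apart and *Dbp* and *Tef* 0.158. Genes that vary little lie near each other by this measure. Among all named genes tested, those nearest to *Nfil3* were *Gna12*, a G protein subunit (distance 0.150), *Pm20d2* (0.150) and *Bcl2l1*, which encodes the survival factor BCL-XL (0.152), with log2 fold changes of −0.61, −0.66 and −0.68. *Dbp* lay nearest to *Reps2* (0.0702), *Bex1* (0.0748) and *Agtr1a* (0.0761), *Tef* to *Nup210* (0.0353), *Mtmr6* (0.0399) and *Samd1* (0.0408), and *Hlf* to *Rftn2* (0.0598), *Crispld1* (0.0604) and *Tjp1* (0.0674). *Bhlhe40* lay nearest to *Mogs* (0.0463), *Lgi4* (0.0482) and *Sgpp1* (0.0545), *Bhlhe41* to *Nup54* (0.0470), *Nms* (0.0557) and *Cnot1* (0.0578), and *Ciart* to *Gm5796* (0.130), *Gm13629* (0.188) and *Syde2* (0.191). These distances describe the 8 arrays, which include the difference between the groups. That difference was known for *Nfil3* when the genes were chosen, so its place apart is no separate observation.

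Blood cells also express *Nfil3*. Among T, B and NK cell markers, 1 of 7 (*Cd3e*) was well above background on all 8 arrays, and *Cd3g* and the NK cell receptors *Ncr1* and *Klrb1c* were so on none. The summed signal of this list was 521 to 636 in Co and 544 to 666 in Pg mice. All 6 macrophage markers were above background throughout, with sums of 7890 to 13600 and 7910 to 25900. Of 5 neutrophil markers 3 were, with sums of 557 to 685 and 608 to 2480, and *Retnlg* and *Cxcr2* were above background on no Co array and on 2 Pg arrays. Their part in the values of *Nfil3* was not tested.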

How the data were processed

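Gene expression was measured on 8 Agilent one-color arrays (4 Co, 4 Pg). The authors deposited the Cy3 intensity of each spot from Feature Extraction 11.0.1.1, background-subtracted and detrended within the array and not normalized between arrays. A further table from the authors holds quantile-normalized log2 values (28067 entries). Its fold changes, p-values and test statistics were not used here.

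In R (4.3.3) with limma (3.58.1) and the package data.table (1.17.8), spots marked as population outliers (90 to 150 of 59305 per array) were left out, the processed intensity was averaged per probe (56605), quantile-normalized, raised to at least 1 and log2-transformed. The 33819 probes that at least 4 arrays measured well above background were fitted with lmFit and eBayes, two-sided, with Benjamini-Hochberg adjustment over all of them. The DEG limits (q under 0.1, change above 1.5-fold) follow the methods of the paper. The procedure was also run on simulated data, with independent noise per probe and no effect of array, row or column. That run has no bearing on the calls made in these arrays.

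Groups and replicate numbers came from the sample titles. The genes, lists and alternatives were chosen with earlier results of these data known. Some genes of the core clock list are not reported here. In the lists a gene was represented by its brightest probe (32994 probes were named through their accession, the rest by the array). Named were all probes of the 7 genes, list genes with a q under 0.1 and 6 set genes (*Arntl*, *Per1*, *Per2*, *Nr1d1*, *Por*, *Wee1*), and the 3 nearest profiles of each gene. That separate mice give the samples of a group rests on the paper. The number of arrays limits the precision. Alternatives were other background corrections, scalings and filters, the deposited log2 values, a replicate block, and each array left out.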

Additional observations from a re-analysis of the deposited data

How the results depend on the processing

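Under other corrections, scalings and the deposited values, log2 fold changes of the 14 clock output factor probes moved under 1 SD between arrays. The exception was A_52_P173309 of *Tef*, which went from −0.23 to −0.13 (normexp and the deposited values), −0.10 (median signal), −0.12 (75th percentile) and −0.07 (no normalization). The filters on dim probes and the replicate block leave a fold change unchanged, and leaving out 1 of 4 arrays cannot move it by 1 SD. *Nfil3* stayed negative throughout, while its call did not hold. As reported, 2 of the 14 probes were DEGs and the same 2 had an FDR q under 0.1. Both counts were 0 without normalization between arrays, 0 without a filter on dim probes, 0 with the replicate block, and 1 with the deposited log2 values, which hold 10 of the 14 probes. They ranged from 0 to 2 with 1 array left out. Among clock-controlled genes, 1 was a DEG as reported and 0 with normexp, with the median signal, without normalization between arrays, with the deposited values and with the replicate block (0 to 2 with 1 array left out). No core clock gene was a DEG by its brightest probe under any alternative. Of all probes tested, 546 were DEGs as reported, 94 with normexp on the mean signal, 108 with the median signal without background subtraction, 283 with scaling to the 75th percentile, 27 without normalization between arrays, 318 with only probes above background on all arrays, 106 with the deposited values and 0 with the replicate block, where limma gave 0 probes a q under 0.1 and 7392 an unadjusted p under 0.05 (7722 as reported). Lower values made up 80.6% of these DEGs as reported, 29.8% with normexp and 30.6% with the median signal. With 1 array left out the count ranged from 3 (without Co replicate 3) to 697 (without Pg replicate 3). The cause was not tested. Same-numbered Co and Pg arrays deviated together with correlations from −0.07 to 0.18 over the probes tested, so the numbers were not taken to pair the mice, and 4 of the 8 arrays correlated best with their own number. As the number is also the slide column, the replicate block is a block on both. The number of arrays limits what differences could be seen.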

Other observations

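Over all probes rather than 1 per gene, the core clock and clock-controlled lists had 61 tested probes, of which 8 (13.1%) had an FDR q under 0.1, beside 7.82% of all probes tested. All 8 were lower in Pg mice, where 6% of all probes tested had such a q with a lower value. Of the 61 probes, 43 were lower and 18 higher, where 57.7% of all probes tested were lower. The 8 probes belonged to 7 genes, and for 5 of these genes, *Alas1*, *Clock*, *Rora*, *Slc2a4* and *Usp2*, the brightest probe had no such q. *Alas1*, the first enzyme of heme synthesis and a D-box target in liver, gave −0.37 on a dimmer probe (adjusted p = 0.0816 from limma) and −0.02 on its brightest. *Slc2a4*, which encodes the insulin-responsive glucose transporter GLUT4, gave −0.34 (adjusted p = 0.0668, limma) and 0.01, and *Usp2*, a deubiquitinase under clock control, gave −0.40 (adjusted p = 0.0955, limma) and −0.26. *Rora*, an activator at ROR elements, gave −0.26 (adjusted p = 0.0994, limma) and 0.06. These probes were singled out after their values were seen. With 1 array left out, the q stayed under 0.1 in 0 fits for *Rora* and in 1 of 8 (without Pg replicate 3) for *Alas1*, *Slc2a4* and *Usp2*. None of the 8 probes had such a q without normalization between arrays or with the replicate block, and 6 of 8 lost it without the filter on dim probes. *Alas1* (−0.23) and *Rora* (−0.12) also lost it with the deposited values, and *Slc2a4* (−0.29) and *Usp2* (−0.43) with scaling to the 75th percentile.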
